A study of Caenorhabditis elegans with 12 samples.

Results

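The comparison was between CL2006 worms that received both the 5MER peptide and RNAi against Aβ, a group named ABPS, and worms that received neither, a group named EV0S. Its members were the 3 ABPS and the 3 EV0S libraries, 6 of the 12 libraries of the series, and all 19089 genes listed were compared. The other groups were EVPS, with peptide and the empty RNAi vector, and AB0S, with Aβ RNAi and buffer. They had 3 libraries each and entered the fit, and their values are given beside those of ABPS and EV0S.

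All 4 groups were CL2006 worms, a *C. elegans* strain in which the *unc-54* myosin promoter drives human Aβ in body wall muscle and a *rol-6* collagen allele marks the transgene. ABPS worms were fed bacteria expressing double-stranded RNA against Aβ over 2 generations, and from the first day of adulthood they were soaked in and then given daily the 5MER peptide. EVPS worms had the same peptide on empty vector (EV) bacteria, AB0S worms had the Aβ RNAi with M9 buffer, and EV0S worms had the EV bacteria with M9 buffer. Every library came from a pool of whole worms harvested at day 6 of adulthood, from 3 independent repeats. The 2 groups compared thus differed in peptide and RNAi at once, and the contribution of each cannot be told apart from this comparison alone. A whole-worm pool also mixes tissues, so that fewer cells of a type and less RNA per cell cannot be told apart.

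Aβ is the aggregating peptide of Alzheimer's disease, and its expression in worm muscle burdens the protein-folding machinery and paralyses the animals with age. Cells meet misfolded proteins with chaperones, among them small heat shock proteins, which hold unfolded proteins without using ATP, and the Hsp70 family, which refolds them with ATP. The worm's skin, the hypodermis, secretes a collagen cuticle, and hedgehog-related proteins, a family that expanded in nematodes, are produced largely in the same tissue.

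The values were normalized and batch-corrected read counts without a length correction, so levels were compared between groups and not between genes, and the sequencing depth is unknown. Library sums ran from 28115687 to 28841254 in ABPS and from 24082771 to 29142841 in EV0S. EV0S repeat 3 stood apart from its group. The leading axis of a principal component analysis (54.5% of the variance) spread the ABPS libraries over -3.97, 26.29 and -24.19, and placed EV0S repeat 3 at 25.05 but the other EV0S libraries at -36.77 and -33.94. The sums of some marker classes moved with it. The 174 cuticle collagens summed to 626191, 606399 and 668548 in ABPS, against 741544, 723298 and 312293 in EV0S, and the 10 body wall muscle markers to 159193, 139623 and 192331 in ABPS, against 209937, 206877 and 124003 in EV0S. The 8 intestinal markers summed to between 58394 and 73958 in ABPS and to between 52979 and 96751 in EV0S, and the 56 sperm markers to between 8562 and 23284 in ABPS and to between 9628 and 23473 in EV0S. The 14 oocyte and early embryo markers summed to 439782, 448827 and 448075 in ABPS, against 429544, 411885 and 356726 in EV0S. Other classes did not follow EV0S repeat 3 in the same way. The 9 neuronal markers summed to 13999, 14665 and 13771 in ABPS, against 13002, 13256 and 13204 in EV0S. For the oocyte and early embryo and the neuronal markers, every ABPS sum was above every EV0S sum, so these differences did not rest on EV0S repeat 3 alone. In EV0S the 5 pharynx markers summed to 13164, 12905 and 11832, and the 7 zygotic embryo markers to 286, 270 and 379. Apart from 4 of the collagens, no marker of these classes was at or below 0 in any of the 6 libraries. RNA of each class was thus detected, which does not show the share of each tissue in a pool. The part of these differences in the results below was not tested, and counts of the comparison and of most lists are given with and without EV0S repeat 3.

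Of the 19089 genes, 188 (0.985%) differed between ABPS and EV0S at a Benjamini-Hochberg adjusted p below 0.1 in limma, fitted on log2(value + 1) with group and repeat in the model. Of these, 55 (0.288%) were higher and 133 (0.697%) were lower in ABPS. The lower genes included 3 of 11 small heat shock, 5 of 174 cuticle collagen and 5 of 83 hedgehog-related and patched-related genes. The higher genes included 6 of 57 transthyretin-related genes. Of 78 genes for lipases, fatty acid binding and beta-oxidation 2 were higher and 2 lower. Most members of each of these lists were not called. The log2 fold changes of the higher genes lay between 0.27 and 1.26 (median 0.64), and those of the lower genes between -2.01 and -0.31 (median -0.91), beside a median of -0.0026 over all genes. More than a 2-fold difference was found for 6 higher and 51 lower genes. In each of the 188 genes the 3 ABPS values lay on one side of the 3 EV0S values, a separation that 21% of all genes showed.

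The count rested on the libraries used. With no replicate block 673 genes (3.53%) were called, 219 higher (1.15%) and 454 lower (2.38%). Without EV0S repeat 3 there were 1699 (8.9%), 505 higher (2.65%) and 1194 lower (6.25%), and without both ABPS repeat 2 and EV0S repeat 3 there were 509 (2.67%), 88 higher (0.461%) and 421 lower (2.21%). Without EV0S repeat 1 there were 12 and without ABPS repeat 3 there were 365, while without ABPS repeat 1, ABPS repeat 2 or EV0S repeat 2, and when only the 2 groups were fitted, limma called 0 genes, with 1632, 1654, 1723 and 1222 genes at an unadjusted p below 0.05. All 188 genes kept their direction and an unadjusted p below 0.05 in each of these fits. The 69 called genes described here by name were all called in the same direction without EV0S repeat 3, with log2 fold changes between 0.72 and 1.24 times those given. All these fits reuse the libraries on which the genes were picked, so this is not independent support.

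**Figure D1:**
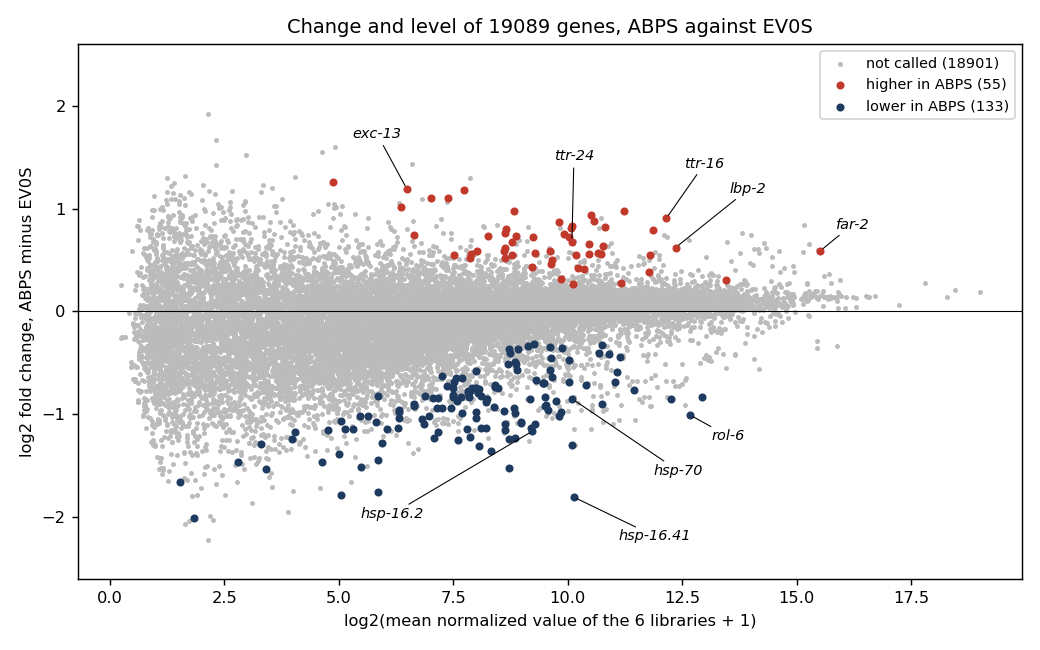
Log2 fold change (ABPS minus EV0S) of each gene against log2 of its mean normalized value plus 1 over the 6 libraries. Each point is 1 gene. The 55 called higher genes (red) lie between 0.27 and 1.26 and the 133 called lower genes (blue) reach -2.01, with *hsp-16.41* the labelled gene that lies lowest.

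A total of 4 heat shock genes were called, all lower in ABPS. They were 3 of 11 small heat shock protein genes (27.3%) and 1 of 14 larger chaperone genes (7.14%), beside 0.697% of all genes called lower. *hsp-16.2*, a small heat shock protein gene on chromosome V (WBcel235, chrV:1804334-1804957), had 362, 384 and 358 in ABPS, against 834, 851 and 795 in EV0S. Its neighbour on the opposite strand, *hsp-16.41* (chrV:1805178-1805875), had 545, 480 and 433 in ABPS, against 1273, 1604 and 2378 in EV0S. In both genes every ABPS library was below every EV0S library, and EV0S repeat 3 was the lowest of its group for *hsp-16.2* and the highest for *hsp-16.41*. The log2 fold change was -1.17 ± 0.14 (SE) for *hsp-16.2* and -1.81 ± 0.22 for *hsp-16.41*, with an adjusted p of 0.025 for both (limma, n = 3 per group).

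*hsp-16.11*, a further small heat shock protein gene, had 221, 272 and 256 in ABPS, against 588, 631 and 550 in EV0S, a log2 fold change of -1.24 ± 0.19 (adjusted p = 0.051, limma). It has a near-identical copy in the genome that was not analysed here, so its reads are uncertain between the copies. *hsp-70*, which encodes a heat-inducible Hsp70 chaperone, had 811, 722 and 810 in ABPS, against 1505, 1506 and 1235 in EV0S, with a log2 fold change of -0.85 ± 0.18 and an adjusted p of 0.089 (limma). Neither gene showed an overlap between the groups.

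Other chaperones did not pass the test. Of 11 small heat shock protein genes 3 were lower and 0 higher, and the median log2 fold change of the list was 0.21, opposite in sign to the called members. Within the pairs of equal repeat number this median was 0.072, 0.034 and -0.13, and without ABPS repeat 2 it was -0.092. Its sign thus rested on the libraries used. The 8 members not called lay between *hsp-12.2* at -0.13 and *hsp-12.3* at 0.42 on the log2 scale. Of 14 Hsp70, Hsp90, Hsp60 and Hsp110 genes only *hsp-70* was called, and the list's median was 0.034. When EV0S repeat 3 was left out, 6.25% of all genes were called lower and 2.65% higher. The small heat shock list then had 3 lower and 2 higher genes, and the other list 2 lower. The 8 chaperonin genes and the 20 genes of folding and stress in the endoplasmic reticulum held 0 called genes in limma, and 0 and 2 of them were higher at an unadjusted p below 0.05, beside 5.97% of all genes.

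The heat shock genes in the other groups are given side by side. Over all genes, 1399 (7.33%) were called between EVPS and EV0S and 2114 (11.1%) between AB0S and EV0S. *hsp-16.2* had 555, 561 and 800 in EVPS and 376, 424 and 340 in AB0S. Against EV0S the log2 fold change was -0.39 ± 0.14 in EVPS (adjusted p = 0.15) and -1.13 ± 0.14 in AB0S (adjusted p = 0.016), and for *hsp-16.41* it was -0.86 ± 0.22 in EVPS (adjusted p = 0.074) and -1.96 ± 0.22 in AB0S (adjusted p = 0.011), all in limma. These contrasts share the EV0S libraries with the comparison of ABPS and EV0S. The direct contrast of ABPS with AB0S called 0 genes in limma, with 3034 at an unadjusted p below 0.05, and that of ABPS with EVPS called 52 (0.272%). The interaction of peptide and RNAi, the difference between the peptide's effect with and without Aβ RNAi, was called for 569 genes (2.98%).

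**Figure D2:**
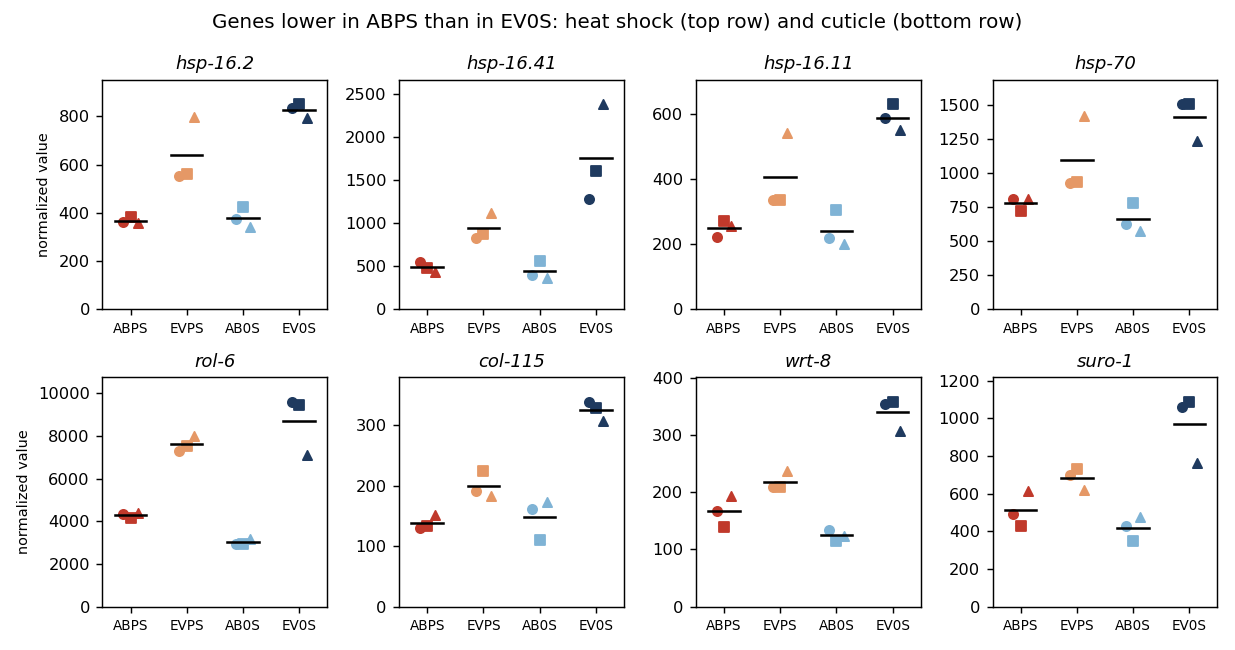
Normalized value of 8 genes lower in ABPS than in EV0S, by group, with 1 point per library (circle, square and triangle for repeats 1, 2 and 3) and a line at the group mean. In each gene the 3 ABPS points lie below the 3 EV0S points, as for *hsp-16.2* with 362, 384 and 358 in ABPS and 834, 851 and 795 in EV0S.

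Among 174 cuticle collagen genes 5 (2.87%) were called, all lower in ABPS, beside 0.697% of all genes called lower. *rol-6*, a cuticle collagen gene (chrII:8733050-8734239), had 4340, 4140 and 4410 in ABPS, against 9579, 9440 and 7109 in EV0S. Its log2 fold change was -1.01 ± 0.11 (adjusted p = 0.020, limma), and the groups did not overlap. Reads of the *rol-6* copies of the transgene marker and of the native gene cannot be told apart in these values. In the other groups *rol-6* had 7305, 7527 and 8002 in EVPS and 2950, 2960 and 3182 in AB0S.

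The collagen gene *col-115* had 131, 133 and 152 in ABPS, against 338, 328 and 307 in EV0S, a log2 fold change of -1.22 ± 0.17 (adjusted p = 0.036, limma), and *col-65* had 632, 537 and 712 in ABPS, against 1169, 1241 and 1290 in EV0S, a log2 fold change of -0.98 ± 0.15 (adjusted p = 0.048). *col-58* and *col-113* had log2 fold changes of -1.25 ± 0.21 and -1.10 ± 0.23, with adjusted p of 0.051 and 0.089. *col-115* and *col-113* overlap a gene on the opposite strand, and whether reads were counted by strand is not stated. *col-113* was named after its values were seen.

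The median log2 fold change over the 174 cuticle collagen genes was -0.56, with 43 of them above 0, beside -0.0026 over all genes. In 32 of the 174 all ABPS values were below all EV0S values, beside 10.1% of all genes, and in 12 all were above, beside 10.9% of all genes. Within the pairs of equal repeat number the list's median was -0.80, -1.29 and 0.37, so that the pair with EV0S repeat 3 went the other way. Without EV0S repeat 3 the list had 92 lower genes and a median of -0.97, in a fit that called 6.25% of all genes lower. With no replicate block it had 21 lower and 1 higher, beside 2.38% and 1.15% of all genes.

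Among 83 hedgehog-related and patched-related genes 5 (6.02%) were called, all lower in ABPS, beside 0.697% of all genes called lower. *wrt-8*, a warthog gene of the hedgehog-related family, had 167, 139 and 193 in ABPS, against 354, 357 and 307 in EV0S, a log2 fold change of -1.03 ± 0.13 (adjusted p = 0.025, limma). *hog-1*, another member, had 79.2, 76.2 and 95.4 in ABPS, against 142, 134 and 170 in EV0S, a log2 fold change of -0.82 ± 0.13 (adjusted p = 0.051). Every ABPS library was below every EV0S library in both. The ground-like genes *grl-15* and *grl-7* and the groundhog-like gene *grd-15* had log2 fold changes of -0.71, -0.67 and -1.24, with adjusted p of 0.051, 0.089 and 0.095. *grd-15* was at a low level, with means of 8.45 in ABPS and 21.3 in EV0S, and was named after its values were seen.

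Of the 83 genes 20 lay above 0. The median log2 fold change of the list was -0.29, and it was negative in each of the 3 pairs, at -0.40, -0.37 and -0.26. In 30 of the 83 all ABPS values were below all EV0S values, beside 10.1% of all genes. Without EV0S repeat 3 the list had 25 lower and 0 higher genes, beside 6.25% and 2.65% of all genes. With no replicate block it had 13 lower and 0 higher, beside 2.38% and 1.15% of all genes.

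The next 11 genes belong to no list. They were picked among the 133 lower genes after their values were seen, so they say nothing of how often genes of their kind changed. *suro-1*, which encodes a carboxypeptidase-like protein of the cuticle, had 495, 431 and 614 in ABPS, against 1059, 1087 and 761 in EV0S, a log2 fold change of -0.91 ± 0.18 (adjusted p = 0.072, limma). EV0S repeat 3 was the lowest of its group and lay above every ABPS library. The secreted astacin-type proteases *nas-7*, *nas-30* and *nas-38* had log2 fold changes of -0.80, -1.08 and -0.97, and the ADAMTS-type protease *adt-1* had -1.08. The molting gene *mlt-9* had -0.70, the body-length gene *lon-8* -0.51 and *bus-5*, a gene of surface glycosylation, -0.63. The *abu* genes, named for their activation when the unfolded protein response is blocked, had -1.14 for *abu-10*, -0.69 for *abu-13* and -0.90 for *abu-14*. The adjusted p of these genes lay between 0.051 and 0.089 in limma.

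Of the 12 lower genes with the smallest p, the remaining ones carried no gene name beyond their sequence name. *H10E21.4* had 379, 303 and 418 in ABPS, against 790, 838 and 762 in EV0S, a log2 fold change of -1.13 ± 0.13 (adjusted p = 0.025, limma). *F15B9.8* had -0.73, *C05E7.2* -1.31, *D2096.6* -1.13, *T10E10.4* -1.02 and *C26B9.3* -0.74 on the log2 scale, with adjusted p between 0.026 and 0.048. Of the 133 lower genes 16 had another lower gene within 10 kb, and of the 55 higher genes 6 had another higher gene within it. The share among genes in general was not counted, so these counts do not show that called genes cluster. *R12E2.7*, *R12E2.14* and *R12E2.15*, which neighbour each other on chromosome I, had log2 fold changes of -1.01, -0.94 and -0.92, *C02E7.6* and *C02E7.7* on chromosome V had -1.30 and -1.52, and *C05E7.1*, the neighbour of *C05E7.2* on chromosome X, had -0.78. Apart from *C05E7.2*, these neighbours were picked with their values known.

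Among 57 transthyretin-related genes 6 (10.5%) were called, all higher in ABPS, beside 0.288% of all genes called higher. These genes encode small secreted proteins that resemble transthyretin, the carrier of thyroid hormone in human blood. *ttr-16* had 5921, 6574 and 5307 in ABPS, against 3400, 3294 and 2808 in EV0S. *ttr-24* had 1348, 1382 and 1290 in ABPS, against 895, 860 and 762 in EV0S. Both groups were apart in both genes, with EV0S repeat 3 the lowest library. The log2 fold change was 0.90 ± 0.09 for *ttr-16* and 0.68 ± 0.07 for *ttr-24*, with an adjusted p of 0.019 for both (limma), the smallest of the comparison. *ttr-16* overlaps a gene on the opposite strand.

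*ttr-25*, the neighbour of *ttr-24* on chromosome V, had 577, 642 and 582 in ABPS, against 363, 317 and 246 in EV0S, a log2 fold change of 0.97 ± 0.14 (adjusted p = 0.046, limma). *ttr-6*, *ttr-47* and *ttr-5* had log2 fold changes of 0.75, 0.55 and 0.52, with adjusted p of 0.036, 0.079 and 0.095, of which *ttr-47* and *ttr-5* were named after their values were seen. Over the 57 transthyretin-related genes the median was 0.032, with 31 above 0. The list had 10 higher and 2 lower genes without EV0S repeat 3, beside 2.65% and 6.25% of all genes.

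Side by side, *ttr-16* had 3082, 2968 and 3237 in EVPS and 4674, 4607 and 4913 in AB0S. Against EV0S its log2 fold change was -0.03 ± 0.09 in EVPS (adjusted p = 0.91) and 0.58 ± 0.09 in AB0S (adjusted p = 0.019). For *ttr-24* it was -0.02 ± 0.07 in EVPS (adjusted p = 0.95) and 0.53 ± 0.07 in AB0S (adjusted p = 0.017), again in limma with shared EV0S libraries.

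**Figure D3:**
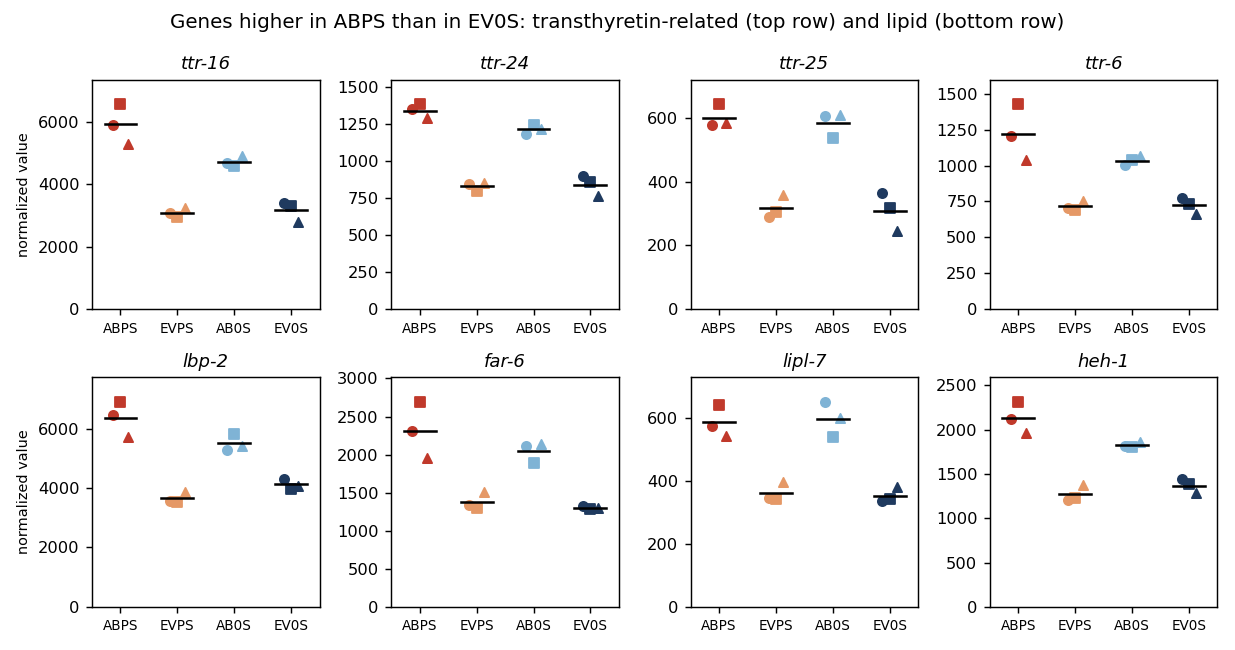
Normalized value of 8 genes higher in ABPS than in EV0S, by group, with 1 point per library (circle, square and triangle for repeats 1, 2 and 3) and a line at the group mean. In each gene the 3 ABPS points lie above the 3 EV0S points, as for *ttr-16* with 5921, 6574 and 5307 in ABPS and 3400, 3294 and 2808 in EV0S.

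Called genes that bind or handle lipids included higher and lower ones. *lbp-2*, which encodes a secreted fatty acid binding protein, had 6451, 6900 and 5731 in ABPS, against 4313, 3980 and 4086 in EV0S, a log2 fold change of 0.62 ± 0.08 (adjusted p = 0.025, limma). *far-6*, a fatty acid and retinol binding protein gene, had 2304, 2691 and 1953 in ABPS, against 1320, 1284 and 1298 in EV0S, a log2 fold change of 0.82 ± 0.11 (adjusted p = 0.036). In both, ABPS repeat 3 was the lowest of its group and still lay above every EV0S library.

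The lipase gene *lipl-7* had a log2 fold change of 0.73 ± 0.10 (adjusted p = 0.038) and *heh-1*, a relative of the human cholesterol-binding protein NPC2, 0.64 ± 0.08 (adjusted p = 0.025). The abundant *far-2*, named after its values were seen, had 54704, 61130 and 52147 in ABPS, against 43231, 40430 and 29349 in EV0S, and its log2 fold change was 0.59 ± 0.12 (adjusted p = 0.092, limma). *gba-3*, a glucocerebrosidase gene also named after its values were seen, had 0.59 ± 0.11 (adjusted p = 0.070). In the other direction *acs-20*, a fatty acyl-CoA synthetase gene, had -0.36 ± 0.07 (adjusted p = 0.069) and the acyl-CoA dehydrogenase gene *acdh-6* had -0.84 ± 0.16 (adjusted p = 0.072). Of 78 genes for lipases, fatty acid binding and beta-oxidation 2 were higher and 2 lower (5.13% called, beside 0.985% of all genes). Their median log2 fold change was 0.016, and the list does not hold *far-6*, *heh-1*, *far-2* or *gba-3*. Without EV0S repeat 3 it had 6 higher and 20 lower genes, in a fit that called 2.65% of all genes higher and 6.25% lower.

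The other higher genes with the smallest p were *Y53H1B.2*, *ZC581.3*, *pcp-5*, a prolyl carboxypeptidase-like gene, *zig-7*, an immunoglobulin-domain gene, and *exc-13*, a gene of the excretory canal. Their log2 fold changes were 0.88, 0.59, 0.56, 0.68 and 1.19, with adjusted p between 0.025 and 0.041 in limma. *exc-13* averaged 124 ± 9.2 in ABPS and 53.7 ± 4.5 in EV0S (SD, n = 3 each), with no overlap.

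A few called genes were single members of other lists. The share called in these lists ran from 0.51% (C-type lectin) to 6.67% (early embryo RNA-binding), beside 0.985% of all genes. *drh-2*, named as a Dicer-related helicase but annotated as a pseudogene, was the only one called in a list of 54 genes of the RNA interference machinery, which had 6 lower genes without EV0S repeat 3. It had 557, 708 and 557 in ABPS, against 954, 1050 and 1338 in EV0S, a log2 fold change of -0.87 ± 0.16 (adjusted p = 0.069, limma). Single called genes were also *btb-14* (0.61), *cyp-14A3* (1.02), *eif-2Bbeta* (0.27), *clec-230* (-0.90), *spp-13* (-0.94) and *ccch-1* (-0.41), with log2 fold changes in brackets, in the lists of MATH and BTB (102 genes), cytochrome P450 (78), translation factor (43), C-type lectin (196), lysozyme and saposin-like (37) and early embryo RNA-binding genes (15). These counts changed when EV0S repeat 3 was left out, a fit that called 2.65% of all genes higher and 6.25% lower. The C-type lectin list then had 6 higher and 25 lower genes, and the cytochrome P450 list 2 higher and 4 lower. The lysozyme and saposin-like list had 4 higher and 4 lower genes, and the MATH and BTB list 2 higher and 2 lower. The translation factor list had 2 higher genes, and the early embryo list 1 higher and 2 lower.

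Some genes were named after their values were seen because of what they encode. *tni-3*, a muscle troponin I gene, had 1788, 1583 and 1788 in ABPS, against 1181, 1191 and 911 in EV0S, a log2 fold change of 0.66 ± 0.11 (adjusted p = 0.051, limma). It does not stand for muscle genes. The list of 22 body wall muscle genes, which does not hold *tni-3*, had 0 called genes and a median log2 fold change of 0.056. Without EV0S repeat 3 that list had 0 higher and 7 lower genes, beside 2.65% and 6.25% of all genes. The carbonic anhydrase gene *cah-4* had 0.57 and the galectin gene *lec-5* 0.55, both with an adjusted p of 0.051. The prolyl isomerase genes *cyn-17* and *fkb-4* both had -0.74, with adjusted p of 0.089 and 0.081, and the methyltransferase gene *set-18* had -0.57 (adjusted p = 0.051).

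**Figure D4:**
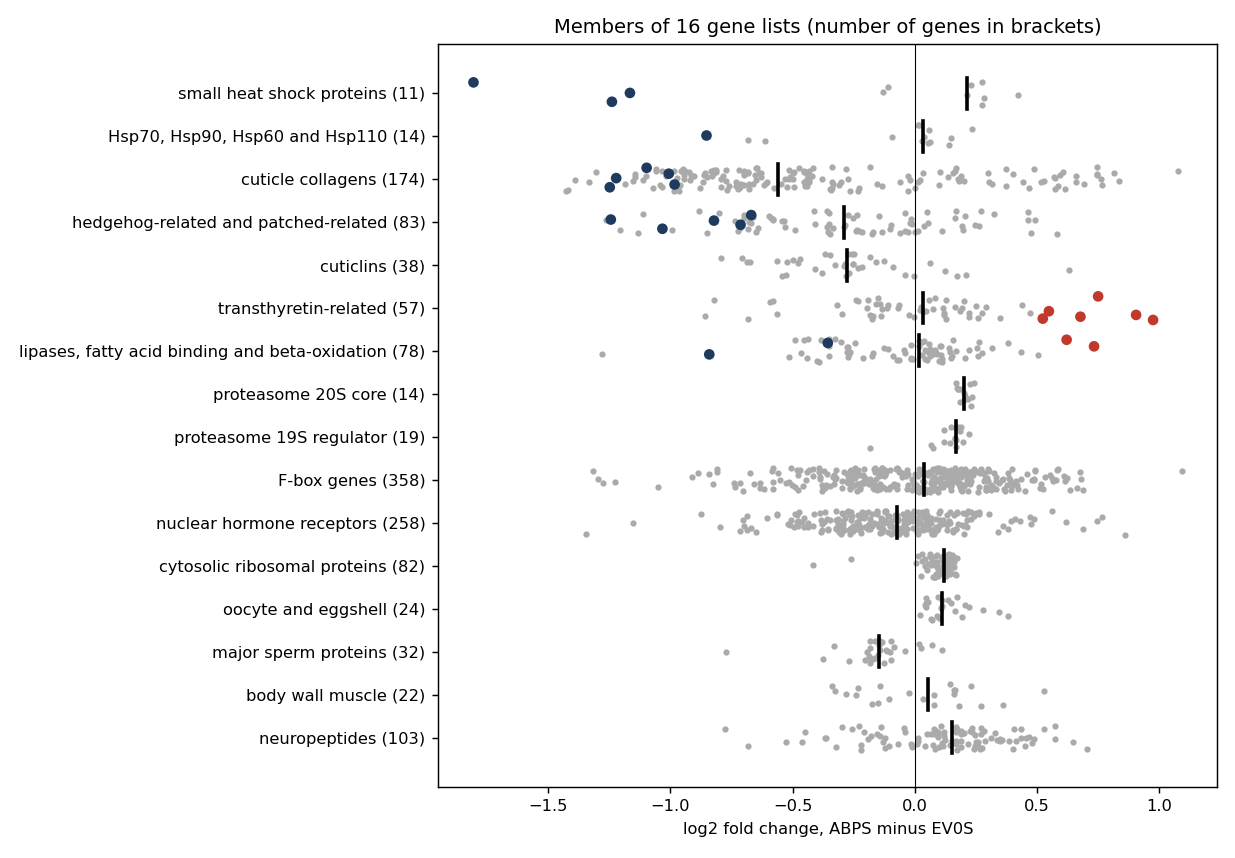
Log2 fold change (ABPS minus EV0S) of the members of 16 gene lists, with 1 point per gene, called genes in red (higher) or blue (lower), others in grey and a line at the list's median. Called members appear in 6 of the lists, and the median of the 174 cuticle collagens lies at -0.56.

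Other genes on which the study turns were not called in this comparison. The paper reported lower *txt-13* with peptide in worms with high Aβ levels, which is the contrast of EVPS with EV0S. Its evidence on TOR, DAF-16 and SKN-1 included knockdown and, for DAF-16, entry into the nucleus, which RNA levels do not measure. The values below therefore do not test those claims. *unc-54*, whose promoter drives the transgene, had 50716, 43651 and 63163 in ABPS, against 81501, 79388 and 43596 in EV0S, and the groups overlapped through EV0S repeat 3. Its log2 fold change was -0.34 ± 0.22 (adjusted p = 0.54, limma). The call for *unc-54* changed when EV0S repeat 3 was left out, to a log2 fold change of -0.70 with an adjusted p of 0.0059, and to -0.57 (adjusted p = 0.010) when ABPS repeat 2 was left out too. *apl-1*, the worm relative of the human Aβ precursor, had 0.06 ± 0.08 (adjusted p = 0.78), and *let-363*, which encodes the TOR kinase, had -0.02 ± 0.10 (adjusted p = 0.96). The transcription factor genes *daf-16*, *skn-1*, *hsf-1* and *pqm-1* had log2 fold changes of 0.07, 0.07, 0.15 and -0.23, with adjusted p of 0.69, 0.68, 0.33 and 0.25. *txt-13*, a gene of transcellular chaperone signaling, had 69.7, 69.7 and 63.3 in ABPS, against 73.1, 67.8 and 68.9 in EV0S, and a log2 fold change of -0.05 ± 0.17 (adjusted p = 0.91).

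The lists of proteasome, F-box, cullin and ubiquitin-conjugating, lysosome and V-ATPase, and autophagy genes held 0 called genes in limma. At an unadjusted p below 0.05, 5.97% of all genes were higher and 7.51% were lower. Beside this there were 8 higher and 11 lower F-box genes of 358, and 8 higher cullin, Skp1-related and ubiquitin-conjugating genes of 49. There were also 2 higher and 3 lower lysosome and V-ATPase genes of 55 and 1 lower autophagy gene of 29. Of the 14 genes of the 20S proteasome core all 14 lay above 0, with a median log2 fold change of 0.20, and 2 passed an unadjusted p of 0.05. *pbs-1*, a core subunit gene, had 0.23 ± 0.10 (adjusted p = 0.35, limma) and *rpn-13*, a receptor for ubiquitin in the regulatory particle, had 0.19 ± 0.08 (adjusted p = 0.35). Without EV0S repeat 3 the median of the core was 0.075. The 19 genes of the 19S regulator had a median of 0.17, and 0.042 without that library. Of 358 F-box genes 0 were called, with a median of 0.037, and of 258 nuclear hormone receptor genes 0 were called, with a median of -0.073. Leaving out EV0S repeat 3 gave 22 higher and 4 lower F-box genes and 3 higher and 2 lower nuclear hormone receptor genes. Over all genes that fit called 2.65% higher and 6.25% lower. That fit also gave 10 lower genes of 55 for the lysosome and V-ATPase, 5 higher genes of 49 for cullins, Skp1-related and ubiquitin-conjugating proteins, and 1 higher and 1 lower of 29 autophagy genes.

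**Figure D5:**
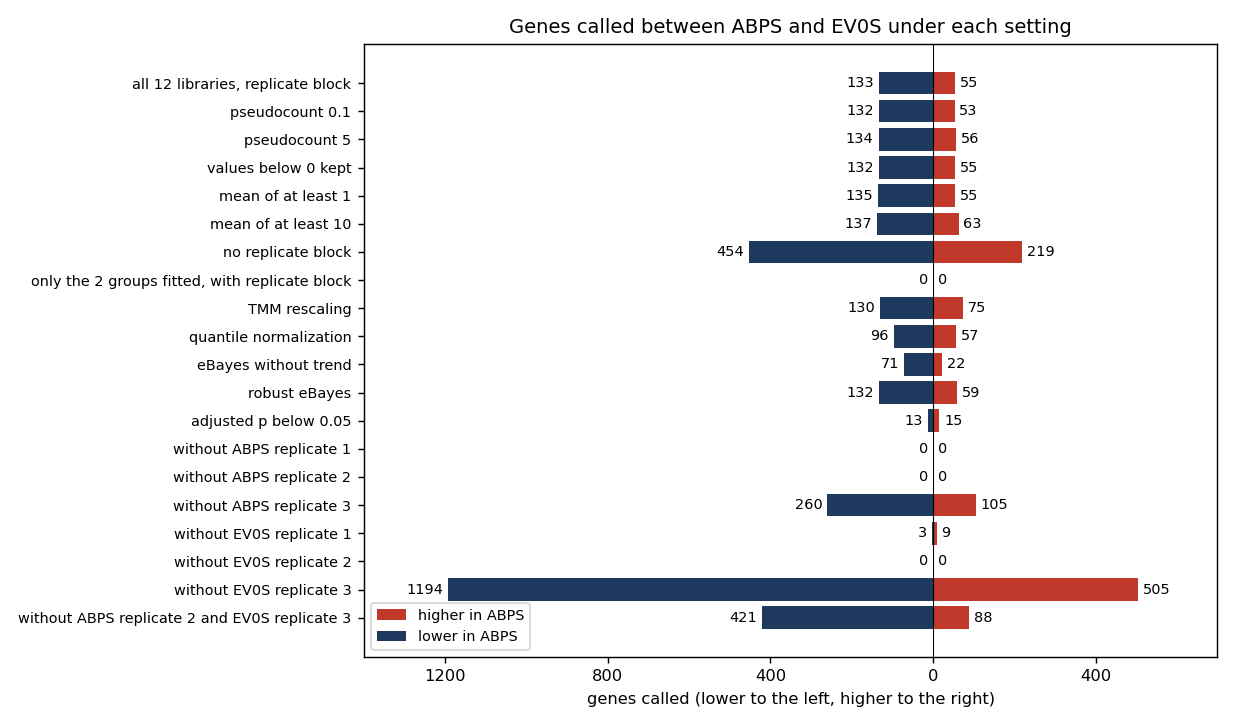
Number of genes called lower (to the left) and higher (to the right) in ABPS than in EV0S under each setting of the fit. The fit with all 12 libraries and the replicate block gave 133 lower and 55 higher genes, and the fit without EV0S repeat 3 gave 1194 and 505.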

How the data were processed

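The authors trimmed the reads, aligned them to WBcel235 with TopHat2 2.1.1, counted them per gene with HTSeq 2.01 and divided the counts by DESeq2 1.36.0 size factors. The deposited values, treated as a score because they are neither counts nor a fixed unit, are these normalized counts after the authors' batch correction for the 3 repeats, whose method is not given in the sources used here. They are linear, and 307 of 229068 values were negative. No count test was therefore used, and the depth is unknown.

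Negative values were replaced by 0, and log2 values with a pseudocount of 1 entered limma 3.58.1 (R 4.3.3, eBayes with trend). The 12 libraries were modelled together, with terms for group and repeat, since the authors had corrected for the repeats. The deviations of equally numbered ABPS and EV0S libraries from their group means correlated at -0.068, -0.59 and -0.61. Genes were called at a Benjamini-Hochberg adjusted p below 0.1, the threshold in the study's methods. An exact permutation test of 3 libraries against 3 cannot go below p = 0.1. Gene positions were taken from Ensembl (WBcel235), in which 19085 of the 19089 genes were found. Plots were made with Python 3.11.15.

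The comparison, the 61 gene lists and the rule for naming genes were chosen with earlier results of these data known. The rule took, per direction, the 12 called genes of smallest p, up to 4 called genes of each list (otherwise its 2 genes of smallest p), and genes on which the study turns, and not all of these are described. Alternatives changed the pseudocount, the filter, the block, the scaling, the variance model, the threshold and the libraries.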

Additional observations from a re-analysis of the deposited data

Results flagged for a closer look

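For 12 of the called genes named above, the effect of the peptide differed between worms on Aβ RNAi (ABPS against AB0S) and worms on the empty vector (EVPS against EV0S), by the interaction term in limma at an adjusted p below 0.1. Over all genes 569 (2.98%) passed this test, and 20 of the 188 called genes did. The interaction on the log2 scale was 0.69 for *rol-6*, 0.80 for *H10E21.4*, 1.04 for *wrt-8*, 1.00 for *C05E7.2*, 0.76 for *C05E7.1*, 0.98 for *hog-1*, 0.63 for *bus-5* and 0.70 for *lon-8*. It was 0.92 for *R12E2.15*, 0.87 for *R12E2.14* and 1.04 for *R12E2.7*. In these genes the difference of EVPS from EV0S was negative and that of ABPS from AB0S was positive, for example -0.63 and 0.40 for *wrt-8* and -0.18 and 0.50 for *rol-6*. The difference of ABPS from AB0S was called for 0 genes. It was only 0.080 for *H10E21.4*, 0.070 for *R12E2.15* and 0.087 for *R12E2.14*, so a reversal is not shown.

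*cyp-14A3*, a cytochrome P450 gene, went the other way, with an interaction of -1.73 (adjusted p = 0.071, limma). It had 96.9, 139 and 90.6 in ABPS and 87.3, 136 and 87.4 in AB0S, and a mean of 185 in EVPS against 52.3 in EV0S. The log2 fold change was 0.076 for ABPS against AB0S and 1.80 for EVPS against EV0S. *cyp-14A3* overlaps 2 genes on the opposite strand. All these terms use the EV0S libraries, and the part of EV0S repeat 3 in them was not tested.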

How the results depend on the processing

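The called genes were 188 (55 higher, 133 lower) with the replicate block and 673 (219 and 454) with no replicate block, so the block lowered the count. They were 0 (0 and 0) when only the 2 groups were fitted, where 2 residual degrees of freedom remained in place of 6, 93 (22 and 71) for eBayes without trend, 28 (15 and 13) at an adjusted p below 0.05, and 509 (88 and 421) without ABPS repeat 2 and EV0S repeat 3. Leaving out 1 library gave between 0 and 1699 called genes, between 0 and 505 higher and between 0 and 1194 lower. The other alternatives gave between 153 and 205 called genes. Of the genes not called, *unc-54* had a log2 fold change between -0.70 and -0.15 over the fits without 1 library, and it was called without EV0S repeat 3. All 188 genes kept their direction in every alternative run that tested them, but these runs reuse the libraries on which the genes were picked. For genes not called, *daf-16* was at -0.00092 and *txt-13* at 0.12 after quantile normalization, and leaving out 1 library gave between -0.0068 and 0.11 for *apl-1*, between -0.11 and 0.0086 for *txt-13* and between -0.15 and 0.067 for *let-363*. The cause was not tested. The depth is unknown, so no limit from counting can be given.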

Other observations

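At an unadjusted p below 0.05, 5.97% of all genes were higher and 7.51% were lower in ABPS. Of 103 neuropeptide genes 75 lay above 0 on the log2 scale in ABPS against EV0S, with a median of 0.15 and 0 called in limma, and 15 were higher and 4 lower at an unadjusted p below 0.05. Of 42 cell cycle genes 40 lay above 0, with a median of 0.12 and 0 called, and 14 were higher and 0 lower at an unadjusted p below 0.05. All 24 oocyte and eggshell genes lay above 0, with a median of 0.11, and *perm-2*, an eggshell gene, had 29123, 32915 and 24864 in ABPS, against 21939, 21466 and 22832 in EV0S, a log2 fold change of 0.38 ± 0.09 that did not pass (adjusted p = 0.14, limma) but did without EV0S repeat 3, at 0.44 (adjusted p = 0.024). The 32 major sperm protein genes had a median of -0.15, and 0.34 without ABPS repeat 2. Without EV0S repeat 3, 6 neuropeptide genes were called higher and 6 lower, 4 cell cycle genes and 3 oocyte and eggshell genes were higher, and 9 major sperm protein genes were lower. That fit called 2.65% of all genes higher and 6.25% lower.

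Of the genes on the X chromosome 1.58% were called, with 8 higher and 34 lower, and on the autosomes between 0.752% and 1.07% were.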
